A study of Homo sapiens with 8 samples.

Results

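DNA replication copies the genome once per cell cycle, in S phase, and the genes that carry it out were described here in CAKI1, an established line of human renal carcinoma cells. The set held 48 genes, chosen by name from known roles in replication and found by the symbol column of the deposited table, which held 16782 genes in all. Each of the 48 had 1 row, and all 48 passed the filter on low values, which kept 15593 genes. RNA was measured in 4 control samples and in 4 samples stimulated for 24 h with hLcn-2 at 5 µg/ml. hLcn-2 is the iron-loaded (holo) form of lipocalin-2, a secreted protein that transports iron. All 8 samples were CAKI1 cells that had been deprived of serum for 24 h before the stimulation, and the controls received no hLcn-2. The labels number the samples N1 to N4 in each group. Nothing in the labels says that the numbers are separate cultures, so that p-values measure the spread between these samples, which may be technical. The model is limited to 1 cell line, 1 dose and 1 time.

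Replication starts with licensing in G1, when the origin recognition complex (ORC), CDC6 and CDT1 load the MCM2 to MCM7 ring onto DNA. At the start of S phase, CDC45 and the GINS complex join the ring to form the active helicase, and DNA polymerases extend both strands with the sliding clamp PCNA and its loader RFC. Many of these genes are transcribed together at the boundary of G1 and S, when E2F factors are released from the retinoblastoma protein, and serum withdrawal is known to lower them as cells leave the cycle. In RNA from whole cultures, fewer cells in S phase and less RNA per cell cannot be told apart, and this holds for each value that follows.

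Since E2F sites and CCAAT boxes are the sequence elements best known in promoters of these genes, the 250 bases before each RefSeq start (build GRCh38.p14) were searched on both strands. An E2F word was TTTCCCGC, TTTCGCGC, TTTGCCGC or TTTGGCGC, and the other word was CCAAT. Windows were matched by symbol for 41 of the 48 genes. CCNE2, GINS4, RPA2, MCM5, E2F8, POLD3 and MCM4 were not matched. An E2F word stood in 16 of the 41 windows (39.0%), against 2.79% of all 27305 promoters of the same length and 4.36% of the 10480 promoters whose genes were tested. CCAAT stood in 23 of the 41 windows (56.1%), against 33.0% of all promoters and 35.2% of those whose genes were tested. A match describes letters in a window and no binding was measured. The windows of MCM6, MCM7 and E2F1 are printed because they hold more than 1 E2F word, and those of RRM2 and CLSPN because these genes had the smallest p-values for hLcn-2 when samples were compared within replicate numbers. Each reads 5′ to 3′ on the strand of its gene and ends at the last base before the start, and capitals mark E2F words and CCAAT on either strand.
MCM6, chr2:135876444-135876693, minus strand: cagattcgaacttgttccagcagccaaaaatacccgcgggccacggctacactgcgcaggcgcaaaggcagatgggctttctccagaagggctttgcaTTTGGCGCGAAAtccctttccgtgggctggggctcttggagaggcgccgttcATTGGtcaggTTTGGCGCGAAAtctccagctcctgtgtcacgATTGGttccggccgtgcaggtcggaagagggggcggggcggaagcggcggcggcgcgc
MCM7, chr7:100101398-100101647, minus strand: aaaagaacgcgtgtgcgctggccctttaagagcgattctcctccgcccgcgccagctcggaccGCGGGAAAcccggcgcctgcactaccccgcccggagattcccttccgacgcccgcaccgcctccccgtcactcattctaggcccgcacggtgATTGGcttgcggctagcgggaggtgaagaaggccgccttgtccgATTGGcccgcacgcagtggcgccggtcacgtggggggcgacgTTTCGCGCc
E2F1, chr20:33686386-33686635, minus strand: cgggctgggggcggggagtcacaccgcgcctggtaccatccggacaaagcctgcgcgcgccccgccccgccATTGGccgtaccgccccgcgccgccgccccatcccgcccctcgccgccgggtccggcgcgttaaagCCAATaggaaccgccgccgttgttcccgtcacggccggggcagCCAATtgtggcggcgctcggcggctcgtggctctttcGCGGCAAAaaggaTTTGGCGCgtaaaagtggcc
RRM2, chr2:10122489-10122738, plus strand: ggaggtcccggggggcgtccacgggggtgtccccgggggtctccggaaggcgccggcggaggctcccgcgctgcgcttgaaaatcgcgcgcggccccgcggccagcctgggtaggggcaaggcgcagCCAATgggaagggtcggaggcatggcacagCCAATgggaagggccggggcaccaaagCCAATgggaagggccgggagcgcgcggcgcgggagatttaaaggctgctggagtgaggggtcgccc
CLSPN, chr1:35769979-35770228, minus strand: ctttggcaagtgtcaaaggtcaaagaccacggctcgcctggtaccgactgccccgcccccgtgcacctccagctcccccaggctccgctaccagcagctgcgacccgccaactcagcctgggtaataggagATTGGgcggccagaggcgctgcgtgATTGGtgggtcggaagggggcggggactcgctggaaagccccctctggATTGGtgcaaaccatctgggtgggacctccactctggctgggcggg
The window of MCM6 held 4 E2F words in 2 overlapping pairs, each pair with 1 word per strand, 152 and 148 bases and 90 and 86 bases before the start. MCM7 had an E2F word whose leftmost base lay 187 bases before the start and another at 9 bases. E2F1 carried its words at 33 and 20 bases, beside 3 CCAAT words. RRM2 and CLSPN had 3 CCAAT words each and no E2F word in these 250 bases.

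**Figure D1:**
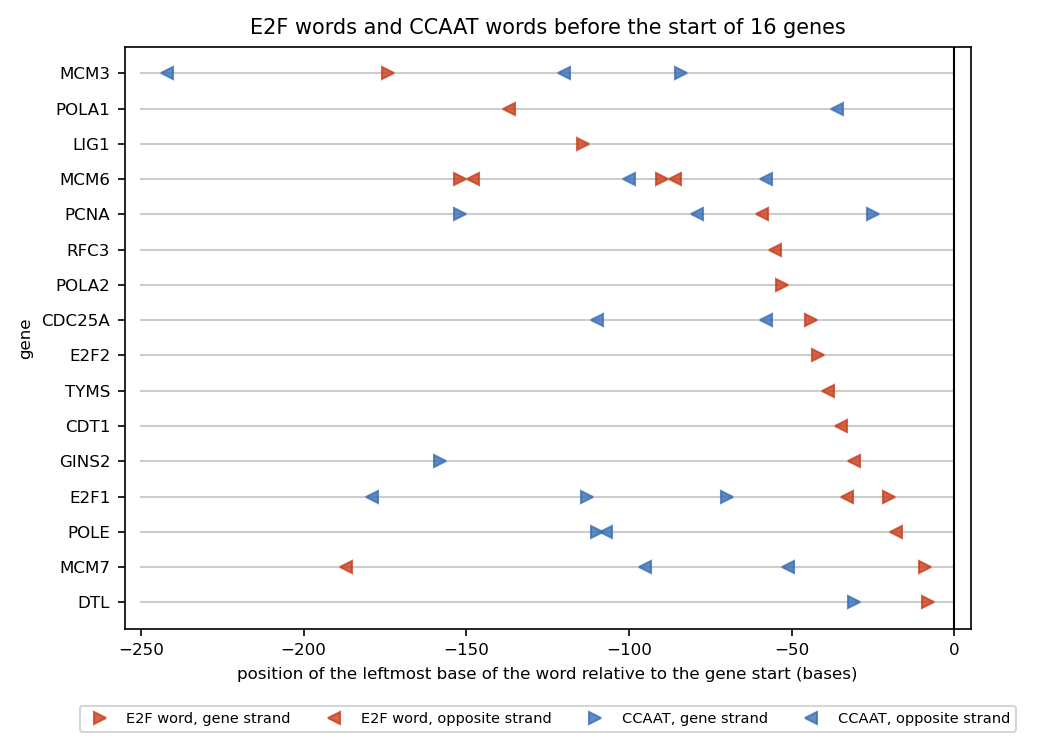
Positions of E2F words (red) and CCAAT words (blue) in the 250 bases before the RefSeq start of the 16 genes with an E2F word; the x axis gives the leftmost base of each word in bases relative to the start, and the direction of a triangle gives the strand. In 12 of the 16 genes an E2F word starts within 60 bases of the gene start, and the 4 E2F words of MCM6 lie farther away.

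The libraries were made with a 3′ mRNA kit, and whole reads could be recovered from the deposited values. Depth ranged from 1501563 reads (control 4) to 13953090 reads (control 1), and 3 reads were worth between 0.211 and 1.98 normalized counts, which are on the CPM scale (counts scaled to a common library size). Of the markers of the renal carcinoma line, 7 of 8 had a row, with means of 225 normalized counts for PAX8, 2.75 for PAX2, 31.2 for KRT8, 94.8 for KRT18, 1769 for VIM, 948 for MET and 24.8 for EPCAM. Markers of leukocytes, endothelium, fibroblasts and erythroid cells were analysed where they had a row, which was the case for CD14 and PDGFRB, with means of 0.897 and 0.651 normalized counts. The rest of these markers were not analysed here. Samples with replicate number 3 stood apart from the others in both groups for most of the 48 genes. Results without them are therefore given for the set and for those of its genes that were called with the block.

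When the 4 hLcn-2 samples were compared with the 4 controls, the replication genes lay mostly lower, but none passed the test. A log2 fold change below 0 was found for 40 of the 48 genes, against 49.8% of all genes tested, and their median was -0.23, against 0.00083 over all genes tested. In limma on log2(normalized count + 1), which compares the groups without regard to the replicate number, 0 of the 48 genes and 0 of all genes tested (0%) had an adjusted p under 0.05. At an unadjusted p under 0.05 these counts were 0 and 355, and the adjusted p of limma was 0.9999 for each of the 48 genes. Neither edgeR nor DESeq2 on the recovered reads called a gene without the replicate number, with 0 of the 48 genes at an unadjusted p under 0.05 in either. The values of the groups overlapped for each of the 48 genes. Of all 15593 genes tested, 154 (0.988%) were lower and 139 higher in hLcn-2 samples with no overlap. At so small a share, the absence of such genes among the 48 does not set them apart. Exact permutation tests of single genes, two-sided over 70 regroupings, gave p-values between 0.0571 for CCNE1 and 0.943, and the smallest p they can give is 0.0286.

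The median over the 48 genes moved when 1 sample was left out of 1 group. It was -0.0058 without hLcn-2 sample 3, with 24 genes lower and 24 higher, and -0.51 without control 3. It was -0.12 without control 2, -0.13 without control 4, and -0.34 both without hLcn-2 sample 2 and without hLcn-2 sample 4. With number 3 left out of both groups together, an alternative chosen after seeing the data, the median was -0.26, with 40 genes lower.

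Samples that share a number deviated from their group means together, and comparing them within numbers gave a smaller error. In these pairs the median difference of the 48 genes was -0.38, -0.18, -0.26 and -0.17 on the log2 scale for numbers 1 to 4, with 42, 38, 35 and 34 genes lower. Lower in 4 of 4 pairs were 21 genes, against 10.9% of all genes tested, and higher in 4 of 4 pairs was SLBP alone, against 9.93%. A fit that holds the replicate number as a block is called blocked here. In blocked limma RRM2 alone of the 48 genes had an adjusted p under 0.05, and it fell, where 0.0641% of all genes tested fell and 0.218% rose. At an unadjusted p under 0.05 in the same fit, 15 genes were lower, against 5.53% of all genes tested, and 1 was higher (SLBP), against 6.65%. Blocked edgeR, by its quasi-likelihood test, called 4 of the 48 genes lower, RRM2, CLSPN, FEN1 and CHAF1A, against 0.372% of all genes tested. Blocked DESeq2 called RRM2, CLSPN and FEN1 lower, against 0.269%. The counts of calls thus depended on the tool. With number 3 left out the blocked limma fit called 0 genes of all tested. At an unadjusted p under 0.05 that fit held 15 of the 48 genes and 1624 of all 15593 genes tested.

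**Figure D2:**
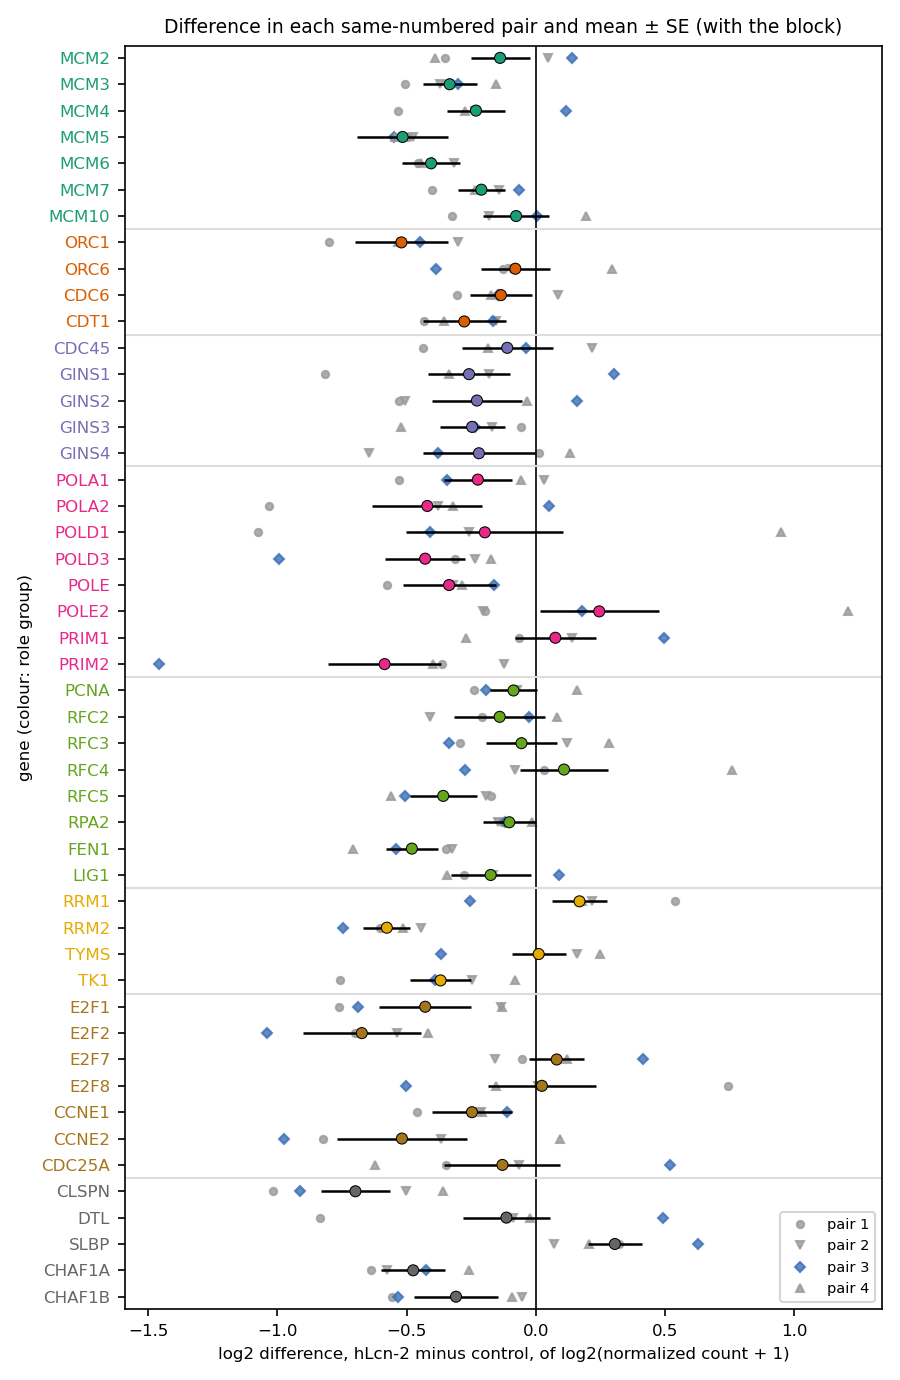
Log2 difference (hLcn-2 minus control) of each of the 48 genes on the log2(normalized count + 1) scale; small grey and blue markers are the 4 same-numbered pairs, and large points with bars are the mean ± SE of the limma fit with the block, coloured by role. Most means lie left of 0, 21 genes have all 4 pairs below 0, and SLBP has all 4 above it.

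Differences between replicate numbers were larger than those between the groups. In both groups the sample with number 3 had the lowest summed level. The summed normalized counts of the 48 genes were 1731, 1953, 886 and 1735 in controls 1 to 4 and 1477, 1797, 796 and 1606 in hLcn-2 samples 1 to 4. Control 3 had 0.491 times and hLcn-2 sample 3 had 0.490 times the mean of the other 3 samples of its group, while within each number the hLcn-2 sample had the lower sum. In the moderated F test of limma for the replicate number, 39 of the 48 genes had an adjusted p under 0.05, against 27.4% of all genes tested. Both samples with number 3 were the lowest of their group for 38 genes, against 20% of all genes tested. The median difference of number 3 from the mean of the others was -1.05 on the log2 scale, against -0.012 over all genes tested, and ran from -1.89 for CLSPN to 0.12 for CCNE1. With number 3 left out, the test called 3 of the 48 genes, CDT1, E2F7 and SLBP, against 5.74% of all genes tested. POLD1, POLE, POLE2, RFC2, RFC4, LIG1, E2F8, CCNE1 and CCNE2 were the 9 genes not called by the number.

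Genes of G2 and mitosis followed the same samples. All 30 of a list of such genes were called by the number in limma, against 27.4% of all genes tested. All 30 were also lowest at number 3 in both groups, against 20%. Their summed normalized counts were 5366, 5820, 1922 and 5737 in controls 1 to 4 and 4357, 5279, 1659 and 4898 in hLcn-2 samples 1 to 4. The mitochondrial ribosomal RNA gene RNR2 took 6.22% and 7.10% of the values in control 3 and hLcn-2 sample 3, against 3.31% to 4.37% in the other 6 samples, and its part in the result was not tested. The hLcn-2 sample with number 3 had the fewest reads of its group (2088266), whereas control 3 had 5799151 reads, more than control 4, and the part of depth in the difference of number 3 was not tested. The labels give the number no meaning beyond that of a replicate.

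**Figure D3:**
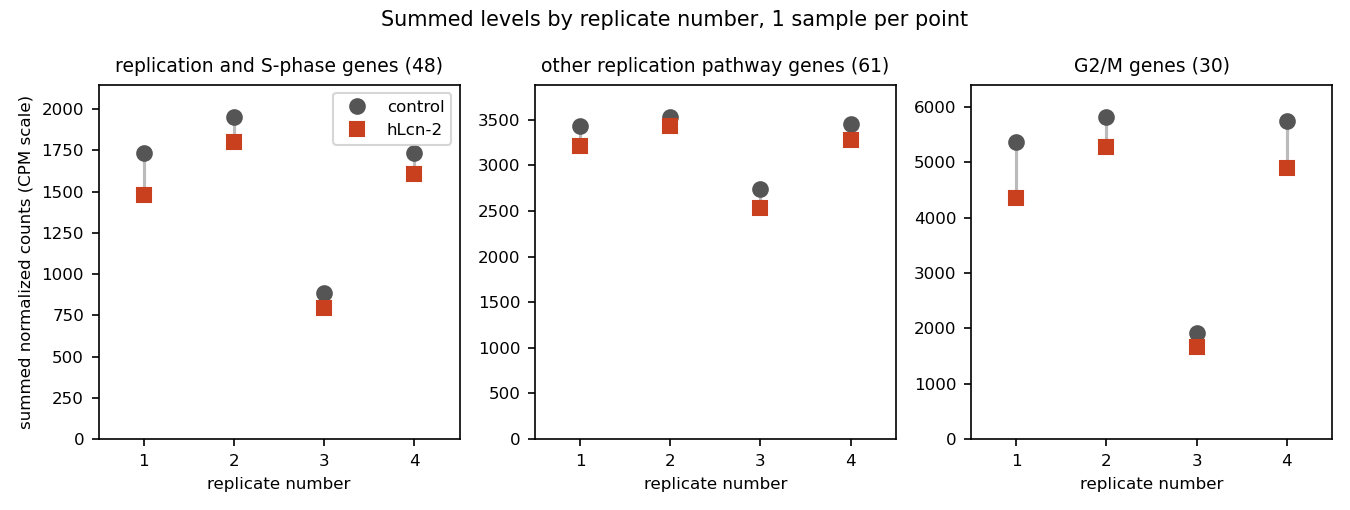
Summed normalized counts (CPM scale) of the 48 replication and S-phase genes, of 61 other replication pathway genes and of 30 G2/M genes, by replicate number, with 1 point per sample (circles, control; squares, hLcn-2). Both samples with number 3 lie lowest in each panel, and within each number the hLcn-2 sample lies below the control.

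The MCM helicase unwinds DNA at the fork, and MCM10 helps to activate it. All 7 MCM genes had log2 fold changes below 0, from -0.52 for MCM5 to -0.076 for MCM10, and none passed the test in limma, unblocked or blocked. MCM7, with the highest mean of the group, had 106, 111, 44.4 and 113 normalized counts in controls 1 to 4 and 80.3, 100.4, 42.5 and 96.1 in hLcn-2 samples 1 to 4. Its hLcn-2 samples 1, 2 and 4 lay below their controls by more than sample 3 did, and the log2 fold change was -0.21 (SE 0.32 unblocked and 0.090 blocked). MCM6 had the smallest p of the group with the block. Its normalized counts were 31.8, 34.1, 21.9 and 41.5 in controls and 22.9, 27.2, 16.3 and 30.2 after hLcn-2, lower in each of the 4 pairs, with overlap between the groups. The log2 fold change of MCM6 was -0.41 (SE 0.23 unblocked and 0.11 blocked, adjusted p = 0.158 in blocked limma). MCM5 rested on few reads, with 4 in the sample with the fewest. All 7 were called by the number, against 27.4% of all genes tested, with differences of number 3 from -0.68 (MCM6) to -1.41 (MCM5).

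ORC1 and ORC6 are subunits of the complex that marks origins, CDC6 and CDT1 are the loading factors, and all 4 had log2 fold changes below 0. CDC6 had 28.8, 33.5, 13.2 and 34.2 normalized counts in controls and 23.2, 35.6, 11.8 and 30.2 in hLcn-2 samples, lower in 3 of 4 pairs, a log2 fold change of -0.13 (SE 0.35 unblocked and 0.12 blocked). The ranges of the groups were nearly the same. ORC1 had 10.4, 11.3, 4.41 and 9.88 in controls and 5.52, 9.02, 2.96 and 6.52 after hLcn-2. It was lower in all 4 pairs, with a log2 fold change of -0.52 (SE 0.34 unblocked and 0.18 blocked, adjusted p = 0.265 in blocked limma). For all 4 genes the number was called, against 27.4% of all genes tested, with differences of number 3 from -1.04 (ORC1) to -1.23 (CDC6).

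CDC45 and the 4 GINS subunits complete the helicase. Their log2 fold changes lay between -0.26 and -0.11, and limma called none of them, unblocked or blocked. GINS1 had 33.9, 32.6, 14.6 and 36.2 normalized counts in controls and 18.8, 28.6, 18.3 and 28.5 after hLcn-2, so that control 3 was the lowest of all 8 samples and hLcn-2 sample 3 lay above it. GINS3 had 34.4, 33.9, 11.8 and 31.6 in controls and 33.04, 30.01, 9.87 and 21.7 after hLcn-2. For GINS3 both samples with number 3 were far below the other 6, and the log2 fold change was -0.25 (SE 0.39 unblocked and 0.13 blocked, adjusted p = 0.472 in blocked limma). All 5 genes were called by the number, against 27.4% of all genes tested. GINS4 had 2 reads in the sample with the fewest.

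Polymerase alpha with its primase (POLA1, POLA2, PRIM1 and PRIM2) starts each strand, and polymerases delta (POLD1 and POLD3) and epsilon (POLE and POLE2) extend it. Of these 8 genes, 6 had log2 fold changes below 0, from -0.58 for PRIM2 to -0.20 for POLD1, and POLE2 (0.25) and PRIM1 (0.076) lay above it. POLA1, the catalytic subunit of polymerase alpha, had 29.1, 28.4, 19.0 and 27.7 normalized counts in controls and 19.9, 29.0, 14.8 and 26.5 after hLcn-2. Its values were close in pairs 2 and 4 and lower after hLcn-2 in pairs 1 and 3. POLD3, a smaller subunit of polymerase delta, had 21.8, 27.0, 18.7 and 24.4 in controls and 17.4, 22.8, 8.89 and 21.5 after hLcn-2. It was lower in all 4 pairs, most in pair 3, with a log2 fold change of -0.43 (SE 0.27 unblocked and 0.15 blocked, adjusted p = 0.286 in blocked limma). The number was called for 5 of the 8 genes, all but POLD1, POLE and POLE2, against 27.4% of all genes tested. Counts were low for POLD1, which had 2 reads in the sample with the fewest, and for PRIM2, which had 3.

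PCNA is the sliding clamp, RFC2 to RFC5 load it, RPA2 coats single-stranded DNA, and FEN1 and LIG1 trim and seal Okazaki fragments. The log2 fold changes of these 8 genes ran from -0.48 for FEN1 to 0.11 for RFC4, with 7 below 0. PCNA had 113, 132, 69.4 and 99.4 normalized counts in controls and 95.9, 125, 60.7 and 111 after hLcn-2, which gave a log2 fold change of -0.086 (SE 0.24 unblocked and 0.091 blocked). Its group means of 103 ± 26.2 and 98.2 ± 27.7 (SD, n = 4) differed by less than the spread between samples. FEN1 had 79.9, 80.3, 35.6 and 90.2 in controls and 62.7, 64.0, 24.2 and 54.8 after hLcn-2. Within each number the hLcn-2 sample of FEN1 was the lower one, yet hLcn-2 samples 1, 2 and 4 remained above control 3. The log2 fold change was -0.48 (SE 0.34 unblocked and 0.10 blocked), with an adjusted p of 0.0655 in blocked limma, 0.0331 in blocked edgeR and 0.0306 in blocked DESeq2. Of 7 blocked fits on all samples, 3 called FEN1. Without number 3 its log2 fold change was -0.46, with an adjusted p of 0.206 in blocked limma.

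Ribonucleotide reductase, made of RRM1 and RRM2, supplies deoxynucleotides, TYMS makes thymidylate, and TK1 salvages thymidine. The 4 genes did not share a direction. RRM2, the small subunit whose level follows S phase, had 103, 112, 35.4 and 119.8 normalized counts in controls and 67.2, 81.8, 20.7 and 83.7 after hLcn-2. Samples 1, 2 and 4 of the controls lay above all hLcn-2 samples, control 3 lay below 3 of them, and each pair was lower after hLcn-2. The log2 fold change was -0.58 (SE 0.46 unblocked and 0.092 blocked). The adjusted p of RRM2 was 0.0317 in blocked limma, 0.00636 in blocked edgeR and 0.000905 in blocked DESeq2. Over 7 fits with the block on all samples the adjusted p ran from 0.000905 to 0.0602 (limma, edgeR or DESeq2), and 6 of them passed the threshold. With 1 number left out the blocked limma fit gave adjusted p-values from 0.0399 to 0.126, with 0.106 and a log2 fold change of -0.52 without number 3. RRM2 stands in a gene list that the study drew from these samples, so its call is not independent evidence of its direction. RRM1, the large subunit, had 162, 181, 128 and 154 in controls and 235, 211, 108 and 174 after hLcn-2, with 3 of 4 pairs higher and a log2 fold change of 0.17 (SE 0.22 unblocked and 0.11 blocked). Means of TK1 were 53.4 ± 20.1 and 42.3 ± 20.2 (SD, n = 4), lower in 4 of 4 pairs, and those of TYMS were 90.4 ± 32.1 and 96.1 ± 42.9 (SD, n = 4). All 4 genes were called by the number in limma, against 27.4% of all genes tested, RRM2 with an adjusted p of 3.17e-06.

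**Figure D4:**
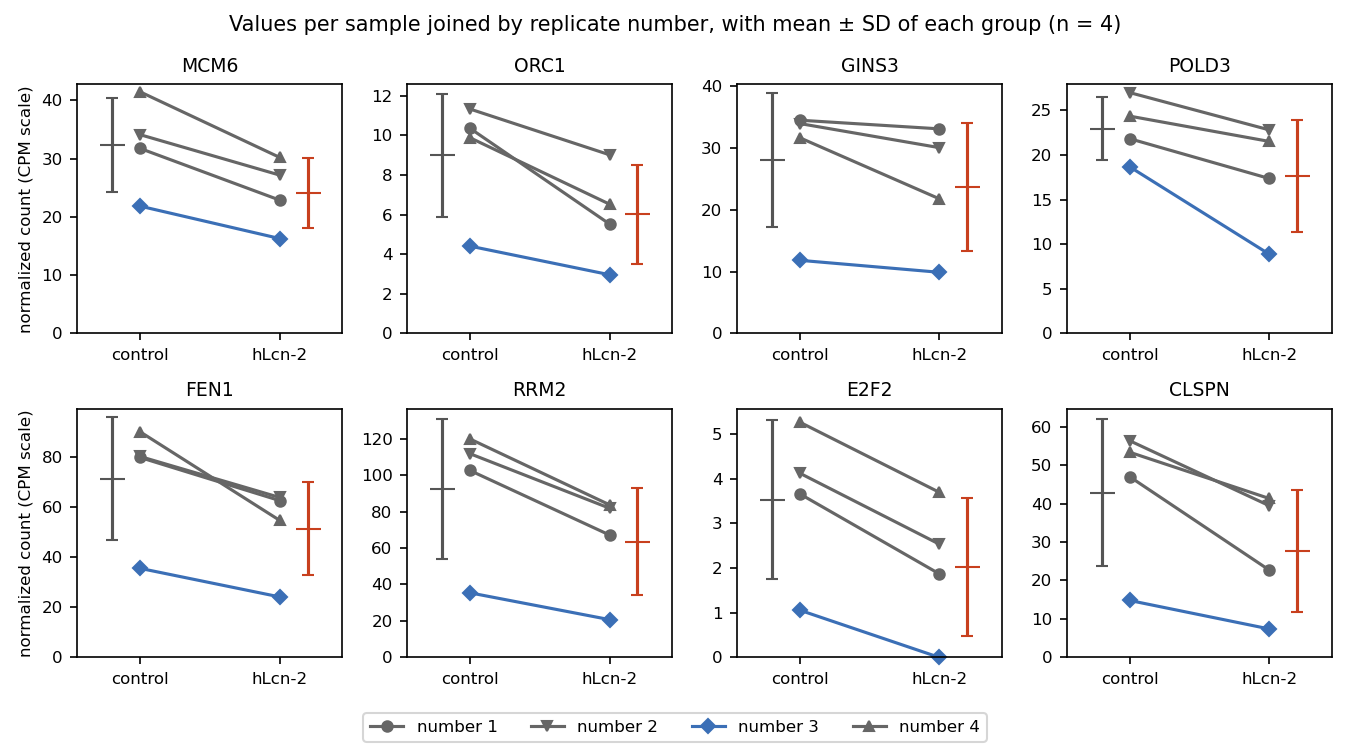
Normalized counts (CPM scale) of the gene with the smallest p with the block in each of the 8 role groups, for control and hLcn-2 samples, with lines joining samples of the same number (blue, number 3) and with mean ± SD of each group (n = 4). The lines fall in all 4 numbers for each gene, and number 3 is lowest in both groups.

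Among the regulators, E2F1 and E2F2 activate S-phase genes, E2F7 and E2F8 repress them later in the cycle, cyclin E (CCNE1 and CCNE2) drives CDK2 at S-phase entry, and CDC25A removes inhibitory phosphates from CDKs. Of the 7 genes 5 had log2 fold changes below 0, and E2F7 (0.082) and E2F8 (0.024) lay above it. E2F7 had 68.1, 144, 23.4 and 51.4 normalized counts in controls and 65.6, 129, 31.6 and 55.9 after hLcn-2. Its spread followed the number in both groups, highest at number 2 and lowest at number 3, and it was among the genes that the number called also without number 3. E2F2 had 3.66, 4.13, 1.06 and 5.27 in controls and 1.87, 2.54, 0 and 3.70 after hLcn-2. The 0 reads in hLcn-2 sample 3 allow a level of up to 1.48 normalized counts, counting error only. E2F2 was lower in all 4 pairs, with a log2 fold change of -0.67 (SE 0.48 unblocked and 0.23 blocked, adjusted p = 0.253 in blocked limma). CCNE1, shown because it had the lowest exact p and thus chosen after its values were seen, had 12.7, 12.4, 12.3 and 11.2 in controls and 8.996, 10.6, 11.4 and 9.57 after hLcn-2. The groups of CCNE1 overlapped in control 4 and hLcn-2 sample 3 (exact permutation test, two-sided, p = 0.0571), and number 3 did not stand apart for it (adjusted p = 0.881 for the number in limma). CCNE2 had 1 read in the sample with the fewest.

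Claspin (CLSPN) relays checkpoint signals at the fork, DTL guides the destruction of CDT1, SLBP binds the stem-loop of histone mRNAs, and CHAF1A and CHAF1B place histones on new DNA. CLSPN had 47.0, 56.3, 14.8 and 53.3 normalized counts in controls and 22.7, 39.4, 7.41 and 41.3 after hLcn-2. It had the lowest log2 fold change of the 48 genes, -0.70 (SE 0.51 unblocked and 0.13 blocked), and the lowest difference of number 3. Its adjusted p was 0.0520 in blocked limma, 0.00792 in blocked edgeR and 0.00398 in blocked DESeq2. Of 7 blocked fits on all samples, 4 called CLSPN. Without number 3 its log2 fold change was -0.63, with an adjusted p of 0.176 in blocked limma. CHAF1A had means of 28.9 ± 8.69 and 20.4 ± 5.44 (SD, n = 4) and was lower in 4 of 4 pairs (adjusted p = 0.139 in blocked limma, 0.0349 in blocked edgeR and 0.0817 in blocked DESeq2). Of 7 blocked fits on all samples, 1 called CHAF1A. Without number 3 its log2 fold change was -0.49, with an adjusted p of 0.246 in blocked limma. SLBP had 69.2, 76.9, 51.6 and 48.7 in controls and 86.8, 80.7, 80.5 and 56.3 after hLcn-2. It was higher in each pair, with the largest log2 fold change above 0 of the 48 genes, 0.31 (SE 0.19 unblocked and 0.10 blocked, adjusted p = 0.253 in blocked limma). For SLBP number 3 differed from the others by -0.084 on the log2 scale, far less than the median of the 48 genes.

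**Figure D5:**
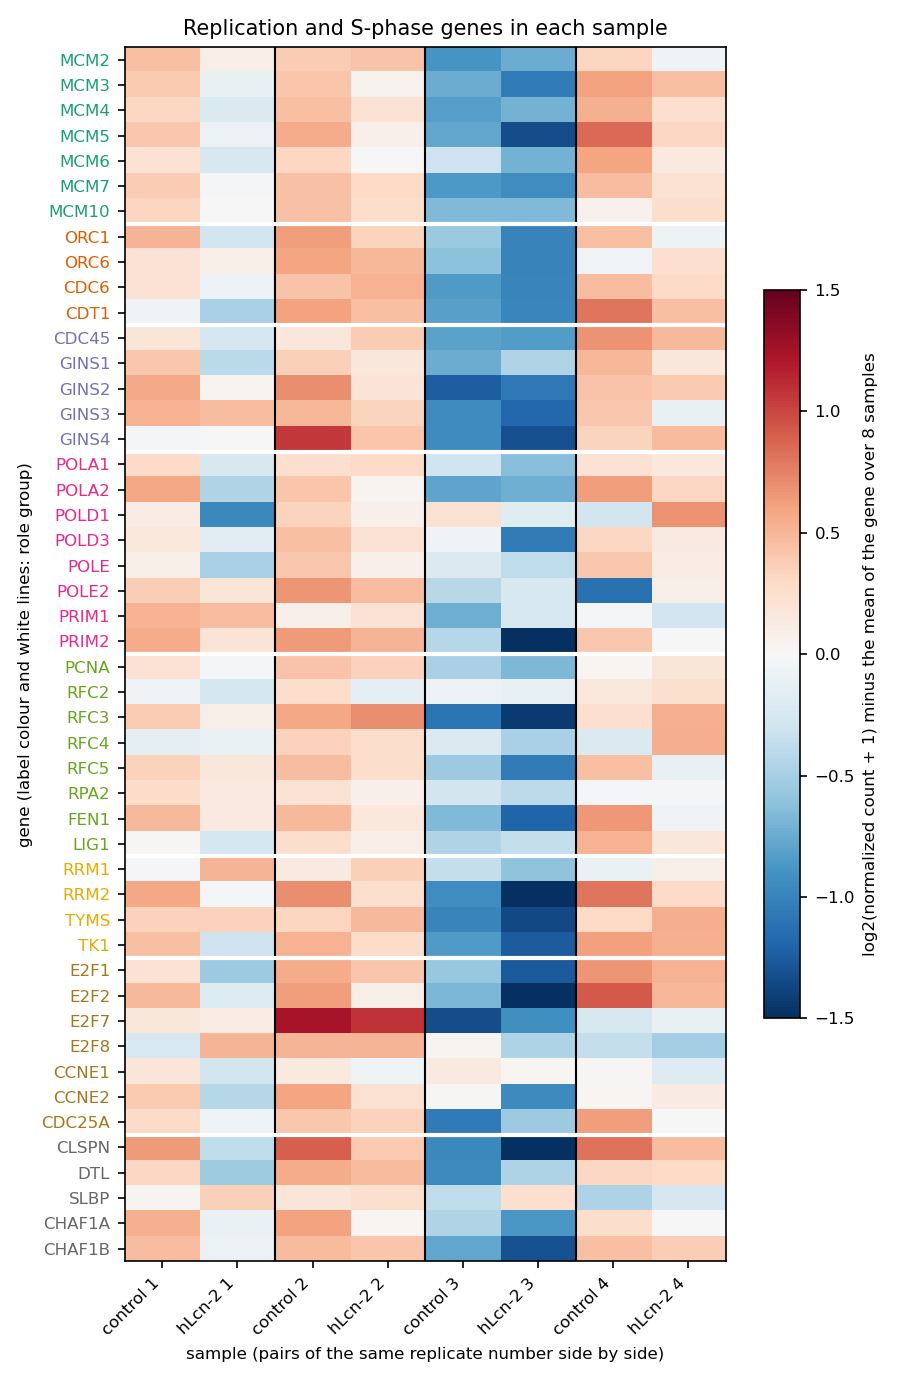
Log2(normalized count + 1) of the 48 genes in the 8 samples after subtraction of the mean of each gene, with same-numbered samples side by side and genes grouped by role (label colours and white lines). The columns of control 3 and hLcn-2 sample 3 are blue (lower) for nearly all genes, while the columns of control and hLcn-2 differ less within a number.

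Other genes of the pathway, from a list of 63 of which 61 had a row, were described in the same way. A log2 fold change below 0 was found for 43 of them, against 49.8% of all genes tested, with a median of -0.13. Lower in all 4 pairs were 20, against 10.9%. In limma 0 of the 61 were called, unblocked or blocked. Of all genes tested, 0% were called unblocked, and 0.0641% were called lower and 0.218% higher with the block. In the blocked fit 10 were lower and 1 higher at an unadjusted p under 0.05, against 5.53% and 6.65% of all genes tested. The 5 with the smallest p were the histone chaperone ASF1B, E2F4, cyclin D3 (CCND3), DONSON, which supports forks, and TFDP1, the partner of E2F factors. ASF1B had 16.6 ± 6.37 normalized counts in controls and 9.15 ± 3.77 after hLcn-2 (SD, n = 4), a log2 fold change of -0.80 (SE 0.17 with the block). Its adjusted p was 0.0667 in blocked limma, 0.0102 in blocked edgeR and 0.0166 in blocked DESeq2. TFDP1 was the one higher, from 81.0 ± 6.82 to 94.9 ± 12.4 (SD, n = 4), and the means of E2F4, CCND3 and DONSON were 47.6 and 38.5, 59.0 and 49.5, and 35.9 and 29.0. By the number, 33 of the 61 were called, against 27.4% of all genes tested, with a median difference of number 3 of -0.53.

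Of the 30 G2/M genes 28 had log2 fold changes below 0, against 49.8% of all genes tested, with a median of -0.20. Lower in 4 of 4 pairs were 18, against 10.9%. MKI67, which marks cycling cells, was called with the block, with 202 ± 85.7 normalized counts in controls and 145 ± 69.5 after hLcn-2 (SD, n = 4), a log2 fold change of -0.51 (SE 0.090 blocked, adjusted p = 0.0373 in blocked limma). MKI67 alone of the 30 was called in blocked limma, where 0.0641% of all genes tested were called lower. Blocked edgeR called MKI67, CCNB2 (adjusted p = 0.0349) and CENPF (0.0394) lower, against 0.372% of all genes tested. Blocked DESeq2 called MKI67, CENPF (0.0236) and ECT2 (0.0448) lower, against 0.269%. Whether the replication genes and the G2/M genes differ in their response to hLcn-2 was not tested.

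The difference of number 3 and that of hLcn-2 were also described by promoter. The 16 genes with an E2F word had a median difference of number 3 of -1.13 and a median log2 fold change for hLcn-2 of -0.23. For the 25 genes without one these medians were -1.06 and -0.20. Only words that end in CGC were searched, so a site spelled otherwise was not counted. The windows of CDC6 and CDC45, among the 25, hold TTTGGCGG, which differs from TTTGGCGC in its last base. The split therefore does not separate genes with and without E2F sites in general. The ranges of both measures overlapped widely, from -1.69 to -0.40 with the word and from -1.89 to 0.12 without it for number 3. Among the other pathway genes 12% of 50 windows held an E2F word and among the G2/M genes 4% of 25. CCAAT stood in 46% of the windows of the other pathway genes and in 80% of the G2/M windows.

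Counts of 8 of the 48 genes could include reads of another gene or lack reads shared with it. The reason is that exons of other annotated genes (GENCODE 44) overlap their last 500 exonic bases. The overlap was on the same strand for POLD1 and PRIM1, and on the opposite strand for MCM2, CDC45, GINS2, GINS4, TYMS and CCNE2. An overlap on the opposite strand matters only if counting ignored the strand. The text of the study does not state whether counting used the strand or how reads over several genes were treated. RRM2 (ENSG00000171848) lies on chromosome 2 from 10120698 to 10211725 of GRCh38 and CLSPN (ENSG00000092853) on chromosome 1 from 35720218 to 35769978. FEN1 (ENSG00000168496) lies on chromosome 11 from 61792911 to 61797238 and CHAF1A (ENSG00000167670) on chromosome 19 from 4402640 to 4445018. None of these 4 has exons of another gene in that stretch.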

How the data were processed

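The data are 3′ RNA profiles of CAKI1 cells, 4 of controls and 4 of hLcn-2-stimulated cells. Following the study's methods and the submitters' processing notes, the authors sequenced 3′ libraries with unique molecular identifiers, aligned reads to GRCh38 with STAR, collapsed them by identifier, counted them per gene with HTSeq and named edgeR, FastQC and MultiQC among their tools. Versions and the use of strand are not given in the sources used here. The deposited values are a signal, normalized counts on the CPM scale of library sizes to which the authors had applied a scaling factor. All 134256 values of 16782 genes were whole reads (relative tolerance 0.0001), and 1 cell with a decimal comma was read as a decimal point. With collapsed identifiers a read stands for 1 molecule, and the floor of 3 reads covers counting error only.

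From these values, log2(normalized count + 1) was modelled in limma 3.58.1 (R 4.3.3), whose variance prior followed the mean expression. Genes needed 1 CPM or more in 2 or more samples, and adjustment was by Benjamini-Hochberg over all genes tested, with a threshold of 0.05. A fold change on this scale understates that of genes with low counts. The fit without the replicate number was the planned main one, and edgeR 4.0.16 (quasi-likelihood test) and DESeq2 1.42.0 on the recovered reads were alternatives. Deviations of same-numbered samples correlated by 0.477, 0.590, 0.610 and 0.312 across genes for numbers 1 to 4, so the numbers were taken to pair the samples and the fit with the number as a block is printed where it changes a call. Other alternatives were pseudocounts of 0.1 and 5, the absence of a filter, a minimum mean of 10 CPM, columns rescaled to the same total, and leaving out samples. The fits were tested on simulated data. Values per sample are given for genes called without or with the block, for genes whose groups did not overlap, and in each role group for the gene of highest mean and that of smallest p with the block. CCNE1 and the means of CHAF1A, TK1 and TYMS were added after their values were seen. The members and lists were chosen with earlier results of these data known. Sequences are from RefSeq, and gene positions from GENCODE 44. Counts were compared between samples and were not divided by gene length.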

Additional observations from a re-analysis of the deposited data

Results flagged for a closer look

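In 9 of 96 groups of 4 samples, that is 48 genes in 2 groups, 1 sample lay far from the other 3, its gap to the nearest, divided by the range of the group, being above the critical value of Dixon's test for 4 samples. Chance gives about 1 in 20, or 4.8 of these groups. In 8 of the 9 groups the sample was control 3, and it lay below the others. This ratio was 0.865 for MCM2 (25.9 normalized counts in control 3), 0.898 for MCM7 (44.4), 0.830 for GINS1 (14.6) and 0.875 for GINS3 (11.8). It was 0.857 for POLA1 (19.0), 0.846 for RFC5 (14.4), 0.953 for TYMS (42.3) and 0.983 for CHAF1B (6.17). These groups are not independent, since they share the sample. The remaining one was RFC4 in control 2, where 20.9 normalized counts lay above the other controls (0.864). The part of any cause in these values was not tested.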

How the results depend on the processing

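Depth limits E2F2, CCNE2, GINS4, POLD1, PRIM2 and MCM5, whose lowest library held 0 to 4 reads. With all samples and no replicate block, the counts of called genes stayed at 0 under edgeR, DESeq2, both other pseudocounts, both other filters and rescaled columns, and so they did with 1 sample left out.

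With the replicate block the counts of called genes among all genes and among the 48 were 44 and 1 in limma, 233 and 4 in edgeR, and 173 and 3 in DESeq2. Combined with the block after seeing the data, rescaled columns gave 36 and 2, a pseudocount of 0.1 gave 8 and 0, a pseudocount of 5 gave 45 and 1, and a minimum mean of 10 CPM gave 85 and 3. With 1 number left out of the blocked fit these counts were 14 and 0 without number 1, 3 and 0 without number 2, 0 and 0 without number 3, and 58 and 2 without number 4. The block changed no call of a gene among the 48 other than those of RRM2, CLSPN, FEN1 and CHAF1A.

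The median log2 fold change of the 48 genes ran from -0.51 (without control 3) to -0.0058 (without hLcn-2 sample 3) with 1 sample left out. It was -0.26 with rescaled columns. The number called for the replicate number was 39 in the main test, 41 in edgeR and 32 to 40 without number 1, 2 or 4, but 3 without number 3. Over all genes it ran from 895 (without number 3) to 5025 with a number left out, with 2685 without number 2. The cause of these changes was not tested, beyond the fewer samples of each fit.

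Not all of the 27 settings besides the main one could change a direction. In limma on the same samples, adding the block or changing the filter left the log2 fold change of each gene as it was. The median was -0.23 in the main fit, with the block and with no filter. A minimum mean of 10 CPM also kept only 34 of the replication genes in the test. Direction changed in none of these 27 settings for 25 genes, only with samples left out for 18, and with all samples for 5. These 5 were RFC3 (0.061 in edgeR and 0.028 in DESeq2, without the block), E2F7 (-0.019 and -0.029), POLE2 (-0.011 in edgeR with the block), TYMS (-0.020) and E2F8 (-0.0037), the last 2 with rescaled columns, without and with the block. In the blocked fit with a number left out, MCM10 (0.0067), POLD1 (0.096), RFC3 (0.024), E2F8 (-0.22) and DTL (0.13) changed direction without number 1, TYMS (-0.037) without number 2, ORC6 (0.024), PRIM1 (-0.064), RFC3 (0.038) and E2F7 (-0.030) without number 3, and POLE2 (-0.074), RFC4 (-0.11), TYMS (-0.067) and CDC25A (0.036) without number 4. The 4 values without number 3 were the same with no block. MCM2, MCM7, CDC6, CDT1, CDC45, GINS2, GINS3, GINS4, PCNA, RPA2 and CHAF1B changed direction only with 1 sample left out of 1 group. Such a fit sets unequal replicate numbers against each other, and leaving out a sample with number 3 shifts the mean of its group alone. The ranges below include these fits. Among the changes of direction with single samples left out, POLD1 was 0.091 without hLcn-2 sample 1, E2F8 -0.14 without hLcn-2 sample 2, RFC4 -0.052 without hLcn-2 sample 4 and DTL 0.054 without control 2. With samples left out in any of these ways, the log2 fold change ran from -0.46 to 0.087 for MCM2, -0.53 to 0.063 for MCM7, -0.31 to 0.13 for MCM10, -0.30 to 0.24 for ORC6, -0.44 to 0.17 for CDC6, -0.59 to 0.0035 for CDT1, -0.39 to 0.15 for CDC45, -0.68 to 0.094 for GINS2, -0.60 to 0.11 for GINS3 and -0.57 to 0.18 for GINS4. The same range was -0.58 to 0.096 for POLD1, -0.086 to 0.51 for POLE2, -0.16 to 0.26 for PRIM1, -0.26 to 0.13 for PCNA, -0.43 to 0.41 for RFC3, -0.11 to 0.29 for RFC4, -0.21 to 0.011 for RPA2, -0.32 to 0.47 for TYMS, -0.35 to 0.51 for E2F7, -0.22 to 0.20 for E2F8, -0.51 to 0.058 for CDC25A, -0.45 to 0.13 for DTL and -0.62 to 0.076 for CHAF1B.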
